A study of Mus musculus with 18 samples.

Results

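The messenger RNAs of 5 receptor chains of the interferon and interleukin-10 family were followed through 18 lines of mouse embryo fibroblasts (MEFs), connective tissue cells grown from embryos. The genes are Ifnar1, Ifnar2, Ifngr2 and Il10rb on chromosome 16, and Ifngr1 on chromosome 10 as a contrast. They were taken by name, with every probe set listed for each: 5 of the 12394 genes on the array, with 7 of the 20393 probe sets that are listed with 1 gene. Of the 7 probe sets, 6 averaged 4 or more on the log2 scale across the 18 arrays and were tested, and 1 of Ifngr2 did not.

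The tested lines were 3 with an extra copy of chromosome 16 (Ts16), 4 with an extra chromosome 13 (Ts13), 1 with an extra chromosome 1 (Ts1) and 1 with an extra chromosome 19 (Ts19). They were set against 9 lines with normal chromosomes (Wt). Ts16 lines thus carried 3 copies of the 4 clustered receptor genes, and every other line carried 2, while Ifngr1 had 2 copies in all lines. All were grown for 2 passages in medium with serum, with no interferon or other agent named in the labels. The sources used here do not state strain, embryo age, the origin of the extra chromosomes or whether each line came from its own embryo, so p-values reflect only how much these samples vary. Values are log2 expression values per probe set, and a difference of 1 is a doubling of signal.

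Type I interferons act through a receptor of Ifnar1 and Ifnar2, and interferon gamma through one of Ifngr1 and Ifngr2. Il10rb is the shared chain of the receptors for interleukin-10, interleukin-22 and the type III interferons. Each chain holds a Janus kinase at its inner end, and ligand binding leads to phosphorylation of STAT proteins and to transcription of interferon target genes. Fibroblasts are a standard cell type for the study of type I interferon responses.

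Promoter windows of 300 bases at the annotated gene start, from RefSeq (assembly GRCm38.p6), are shown for the 4 of the 5 genes that matched, to set the clustered genes beside the contrast gene. Il10rb did not match. Capitals mark GC boxes, GGGCGG or CCGCCC on the other strand. The windows are chr16:91372533-91372832 for Ifnar2, chr16:91484965-91485264 for Ifnar1, chr16:91546809-91547108 for Ifngr2 and chr10:19591699-19591998 for Ifngr1, all on the plus strand.
Ifnar2: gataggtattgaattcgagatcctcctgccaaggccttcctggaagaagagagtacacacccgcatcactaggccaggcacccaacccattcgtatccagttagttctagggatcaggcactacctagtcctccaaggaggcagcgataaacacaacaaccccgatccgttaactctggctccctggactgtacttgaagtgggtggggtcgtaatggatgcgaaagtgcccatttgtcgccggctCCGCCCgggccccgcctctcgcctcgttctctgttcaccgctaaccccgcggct
Ifnar1: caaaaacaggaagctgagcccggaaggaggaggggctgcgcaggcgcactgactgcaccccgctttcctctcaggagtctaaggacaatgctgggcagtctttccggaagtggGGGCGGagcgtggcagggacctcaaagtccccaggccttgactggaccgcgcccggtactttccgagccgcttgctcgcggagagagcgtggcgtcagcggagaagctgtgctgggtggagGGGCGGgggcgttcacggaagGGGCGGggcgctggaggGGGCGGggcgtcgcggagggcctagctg
Ifngr2: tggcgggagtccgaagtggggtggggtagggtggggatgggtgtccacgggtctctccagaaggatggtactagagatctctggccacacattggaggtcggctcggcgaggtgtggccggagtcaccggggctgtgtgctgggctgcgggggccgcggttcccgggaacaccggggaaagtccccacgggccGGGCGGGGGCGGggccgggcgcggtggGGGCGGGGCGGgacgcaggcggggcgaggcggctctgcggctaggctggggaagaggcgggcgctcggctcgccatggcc
Ifngr1: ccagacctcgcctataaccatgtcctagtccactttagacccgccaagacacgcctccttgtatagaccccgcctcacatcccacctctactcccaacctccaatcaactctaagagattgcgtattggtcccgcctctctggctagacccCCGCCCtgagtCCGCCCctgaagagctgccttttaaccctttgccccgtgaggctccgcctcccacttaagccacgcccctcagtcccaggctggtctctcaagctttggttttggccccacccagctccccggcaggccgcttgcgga
Each of the 4 windows held a GC box: 1 in Ifnar2, 4 in Ifnar1, 4 in Ifngr2, where some overlap and are printed as joined capitals, and 2 in Ifngr1. A GC box was found in 35.7% of the 32851 promoter windows of the table. The GC content was 57.0% for Ifnar2, 68.3% for Ifnar1, 74.3% for Ifngr2 and 60.3% for Ifngr1, against a median of 52.7% over all windows. The core letters bound by interferon regulatory factors, AANNGAAA on either strand, were in none of the 4 windows and in 23.9% of all windows. The gamma-activated sequence TTCNNNGAA, which reads the same on both strands, occurred once in Ifnar2 and once in Ifnar1 and in 8.3% of all windows. These are letter matches and no measure of binding.

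The chromosome 16 probe sets as a whole were higher in Ts16. Over 399 tested probe sets of that chromosome the median difference of Ts16 from Wt was 0.62 on the log2 scale, against -0.06 over the other chromosomes. Fibroblast markers were high on every array: the mean of 8 genes lay between 14.50 and 14.93 in Ts16 and between 14.32 and 14.83 in Wt. Leukocytes carry these receptors too. The mean of 12 leukocyte markers, of which 3 passed the level filter, lay between 2.86 and 3.01 in Ts16, between 2.80 and 5.69 in Ts13, at 2.72 in Ts1, at 2.78 in Ts19 and between 2.59 and 4.53 in Wt, and their part in the results was not tested. Of the 3 tested leukocyte markers none passed (limma), 2 were above 0 in Ts16 against Wt with a list median of 0.72, and 1, Csf1r, had an unadjusted p under 0.05. Csf1r, the macrophage growth factor receptor, averaged 5.5 in Ts16 and 4.77 in Wt, a difference of 0.72, and Cd53 differed by 0.73. Lyz2, the remaining tested marker, went the other way, by -0.25 with all Ts16 arrays and -0.08 without the biased ones. The groups overlapped at Csf1r: the lower of Ts16 replicates 2 and 3 read 4.89, within the Wt range, which reached 4.91. Ptprc, the pan-leukocyte surface marker, was near the floor, at a mean of 1.97 in Ts16 and at most 2.02 in Wt. In bulk RNA, fewer cells of a type and less RNA per cell cannot be told apart.

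On 3 arrays the 3' control probe set of Gapdh exceeded its 5' probe set by more than 3 on the log2 scale, and these are called 3'-biased. The difference was 6.55 on Ts16 replicate 1, 6.94 on Ts13 replicate 3 and 5.57 on Ts13 replicate 4, against -0.20 to 1.41 on the other 15 arrays. Ts16 replicate 1 is therefore given apart, and each comparison with Wt was made with all 3 Ts16 arrays and with replicates 2 and 3 in a fit that leaves out the 3 biased arrays.

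Ifnar2, the high-affinity chain of the type I interferon receptor, was high in Ts16 at both of its probe sets. At 1451462_a_at the values were 10.09 in Ts16 replicate 2 and 10.61 in replicate 3, and 10.76 on the biased replicate 1. In Ts13 they were 9.51, 9.80, 9.86 and 9.94, in Ts1 9.37 and in Ts19 9.48, while the 9 Wt lines ran between 9.23 and 10.11 with a median of 9.68. Replicates 1 and 3 lay above all 15 arrays without the extra chromosome 16, and replicate 2 lay just below the highest Wt line.

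The mean of 1451462_a_at was 10.48 ± 0.35 in Ts16 (SD, n = 3) and 9.69 ± 0.26 in Wt (SD, n = 9). The difference was 0.80 ± 0.20 (SE), with a 95% interval of 0.37 to 1.22, which is 1.74-fold. It did not pass an adjusted p of 0.05 over all 11721 probe sets tested (limma, unadjusted p = 0.00115, Benjamini-Hochberg adjusted p = 0.217). The fit without the biased arrays gave 0.66 ± 0.23 (interval 0.16 to 1.15, limma adjusted p = 0.436). Set against the Wt array of the same replicate number, Ts16 was higher by 1.53, 0.40 and 0.93.

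The other Ifnar2 probe set, 1427691_a_at, was also highest on the biased Ts16 array. It read 7.36 and 7.81 in Ts16 replicates 2 and 3 and 8.94 on the biased replicate 1. In Ts13 it read 5.97, 6.65, 6.96 and 6.95, in Ts1 7.19 and in Ts19 6.95, and in Wt between 6.77 and 7.51 with a median of 6.93. Replicate 2 lay within the Wt range, replicate 3 above it, and Ts13 replicates 1 and 2 below it.

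With all 3 Ts16 arrays the difference from Wt at 1427691_a_at was 0.99 ± 0.32 (SE, interval 0.32 to 1.66, limma adjusted p = 0.456). With replicates 2 and 3 it was 0.54 ± 0.28, and the interval of -0.07 to 1.15 included 0 (limma adjusted p = 0.619). The single biased Ts16 array thus moved this value by more than 1.5 times. Replicate 1 exceeded the mean of the other 3 arrays that share its first title number by 1.55. Those were Ts16 replicate 3 and Wt replicates 1 and 3, so gene copies and 3' bias both enter that value. On the biased Ts13 arrays the values were 0.17 and -0.54, with 2 gene copies on both sides. For Ts13 replicate 4 the other side was 1 Wt array.

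**Figure D1:**
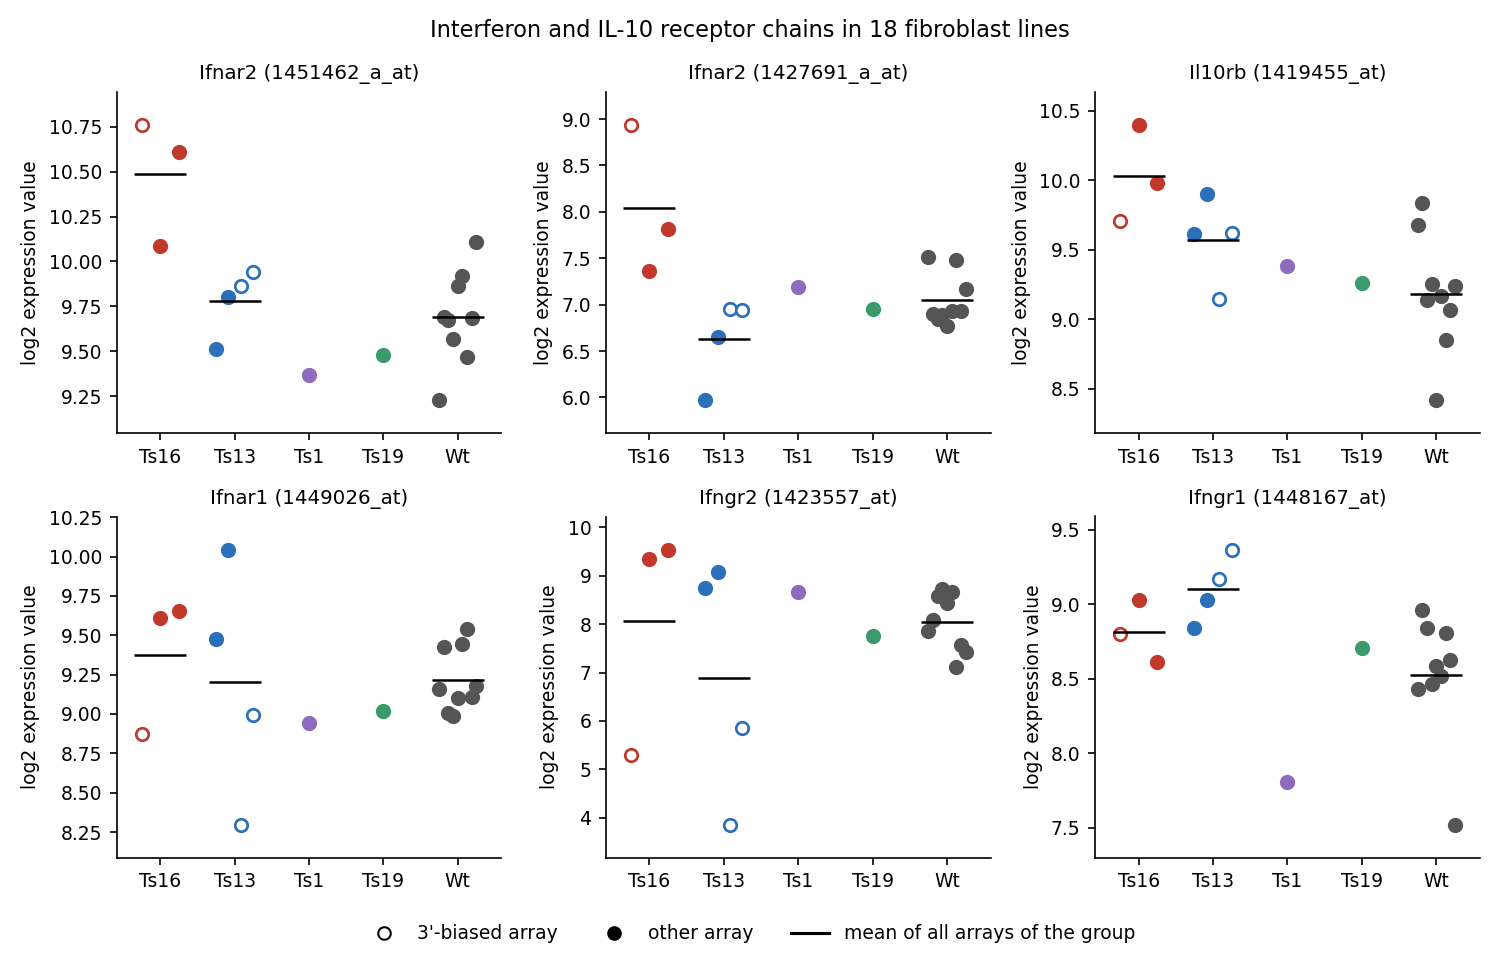
Log2 expression values (vertical axes, a scale of its own per panel) of the 6 tested receptor probe sets in every line, by group. Open circles are the 3'-biased arrays, filled circles the other arrays and bars the mean of all arrays of a group. At Ifnar2 1451462_a_at, 2 of the 3 Ts16 arrays lie above every other array, and at Ifngr2 the 3 open circles lie below all filled ones.

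Il10rb, the shared chain of the interleukin-10 family receptors, has 1 probe set, 1419455_at. It read 10.40 and 9.98 in Ts16 replicates 2 and 3 and 9.71 on the biased replicate 1. In Ts13 it read 9.62, 9.90, 9.14 and 9.62, in Ts1 9.39 and in Ts19 9.26, and in Wt between 8.42 and 9.84 with a median of 9.16. Replicates 2 and 3 lay above all 15 arrays of other groups, and the biased array lay within the Wt range.

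The mean of Il10rb was 10.03 ± 0.35 in Ts16 (SD, n = 3) and 9.18 ± 0.42 in Wt (SD, n = 9), a difference of 0.85 ± 0.27 (SE) with an interval of 0.28 to 1.41. With replicates 2 and 3 alone it was 1.01 ± 0.30, with an interval of 0.35 to 1.66, or 2.01-fold. Neither passed (limma adjusted p = 0.426 and 0.323). The Wt arrays with the same replicate number as Ts16 were themselves the 2 highest and a middling one: Ts16 exceeded them by 0.03, 0.56 and 0.85. With replicate number as a block over these 6 arrays the difference was 0.48 (limma adjusted p = 0.635), and with the first title number as a block, without the biased arrays, it was 0.57.

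Ifnar1, the chain of the type I receptor that carries Tyk2, was measured by 1449026_at. It read 9.61 and 9.65 in Ts16 replicates 2 and 3 and 8.87 on the biased replicate 1. In Ts13 it read 9.47, 10.04, 8.30 and 8.99, in Ts1 8.95 and in Ts19 9.02, and in Wt between 8.99 and 9.54 with a median of 9.16. Replicates 2 and 3 were above every Wt line by a small margin, but Ts13 replicate 2, with 2 copies of the gene, was the highest of all 18 arrays.

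The Ifnar1 difference from Wt was 0.16 ± 0.29 (SE, interval -0.46 to 0.78, limma adjusted p = 0.912) with all Ts16 arrays. Leaving out the biased arrays gave 0.41 ± 0.21 (interval -0.05 to 0.87, limma adjusted p = 0.615). The 2 values differ by more than 1.5 times, and with the Gapdh difference as a covariate the value was 0.44 (limma adjusted p = 0.488). Only the 3 biased arrays, none of them Wt, had covariate values above 1.41. All 3 biased arrays were low for Ifnar1: they lay below the mean of the other arrays of their first title number by 0.40 for Ts16 replicate 1, 1.23 for Ts13 replicate 3 and 0.54 for Ts13 replicate 4. For Ts16 replicate 1 those others were Ts16 replicate 3 and Wt replicates 1 and 3, so gene copies enter its value too.

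Ifngr2, the chain of the interferon gamma receptor that carries Jak2, depended most on the biased arrays. Its tested probe set, 1423557_at, read 9.36 and 9.54 in Ts16 replicates 2 and 3, against 5.31 on the biased replicate 1. In Ts13 it read 8.75 and 9.08 on replicates 1 and 2 and 3.86 and 5.85 on the biased replicates 3 and 4. It read 8.67 in Ts1, 7.75 in Ts19 and between 7.11 and 8.73 in Wt, with a median of 8.08. The 3 biased arrays were the lowest of all 18, and Ts16 replicates 2 and 3 the highest.

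With all Ts16 arrays the Ifngr2 difference from Wt was 0.02 ± 0.97 (SE), and its interval of -2.04 to 2.08 was the widest among the receptor probe sets (limma adjusted p = 0.996). With replicate number as a block over the 6 matched arrays it turned to -0.11 (limma adjusted p = 0.969). On the unbiased arrays it was 1.40 ± 0.40 with an interval of 0.54 to 2.26, or 2.64-fold, and did not pass (limma unadjusted p = 0.00377, adjusted p = 0.296). Among the unbiased arrays the lowest Wt values, 7.11 in replicate 7 and 7.42 in replicate 9, came with the highest Gapdh differences in Wt, 0.69 and 1.41. The Ts1 line, with a Gapdh difference of 0.60, read 8.67, and a link among the unbiased arrays was not tested. Ts16 replicates 2 and 3 had Gapdh differences of -0.12 and -0.14, at the low end of the unbiased arrays. With the Gapdh difference of each array as a covariate, over all 18 arrays, the Ifngr2 difference was 1.23 ± 0.30 (SE), and it did not pass (limma unadjusted p = 0.000786, adjusted p = 0.103). Here too the high covariate values came from the biased arrays alone, none of them Wt.

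The other Ifngr2 probe set, 1423558_at, was close to the floor on every array, at 2.70 to 2.75 in Ts16, at most 3.12 in Ts13 and 2.58 to 2.74 in Wt. It was below the level filter and was not tested. It therefore gives no second reading of the gene.

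**Figure D2:**
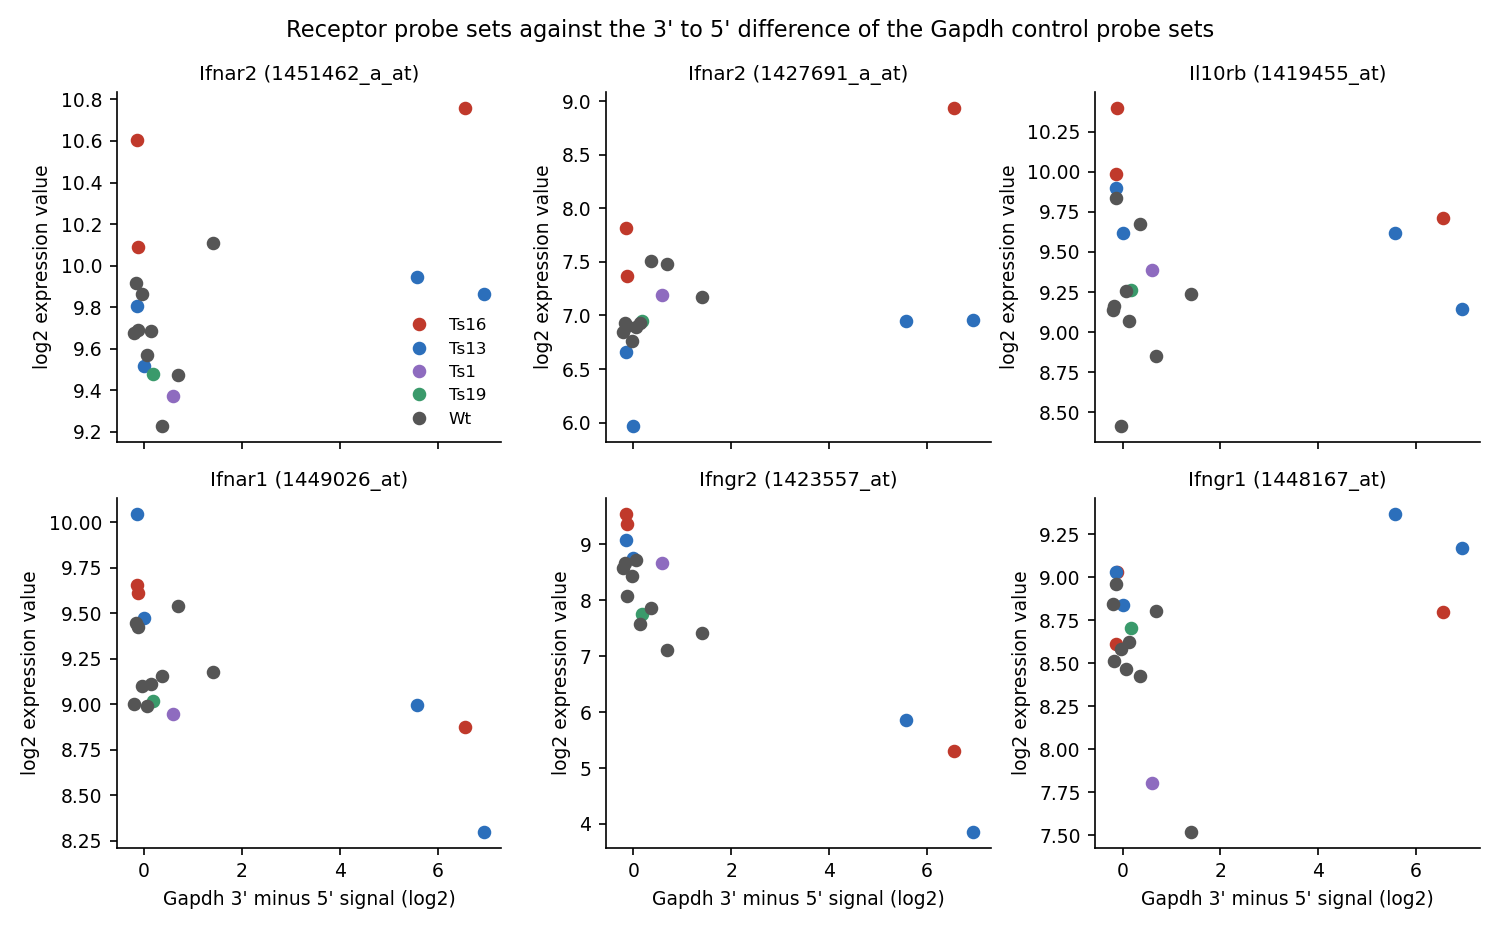
Log2 expression value of each tested receptor probe set (vertical axes) against the Gapdh 3' minus 5' difference of the array (horizontal axes, log2), 1 point per array, coloured by group. The 3 points to the right of 5 are the biased arrays: they are low for Ifngr2, at 3.86 to 5.85, and not for Ifngr1, where they read 8.80 to 9.37.

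Ifngr1, the ligand-binding chain of the interferon gamma receptor on chromosome 10, served as the contrast. Probe set 1448167_at read 9.03 and 8.61 in Ts16 replicates 2 and 3 and 8.80 on the biased replicate 1. In Ts13 it read 8.84, 9.03, 9.17 and 9.37, in Ts1 7.80 and in Ts19 8.70, and in Wt between 7.52 and 8.96 with a median of 8.58. Ts16 and Wt overlapped, and the Ts1 line and Wt replicate 9, which share a first title number, were the lowest of all 18 arrays.

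The Ifngr1 difference from Wt was 0.29 ± 0.26 (SE, interval -0.27 to 0.84, limma adjusted p = 0.845) with all Ts16 arrays and 0.29 ± 0.31 (interval -0.38 to 0.96, limma adjusted p = 0.815) without the biased ones. Both intervals include 0 and also the log2 of 1.5, so the data exclude neither. With replicate number as a block it was 0.07. The mean in Ts13 was 9.10 ± 0.22 (SD, n = 4), and 8.93 on its 2 unbiased arrays, against 8.53 ± 0.42 in Wt (SD, n = 9). All 3 biased arrays read above the mean of the other arrays of their first title number, by 0.17 to 0.56. Each Ts13 line exceeded every Wt line of its own first title number, by 0.37 to 0.66 over 6 such pairs, in which some lines recur. The share of all probe sets that show this is not given here, so it is not read as a trait of Ifngr1.

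**Figure D3:**
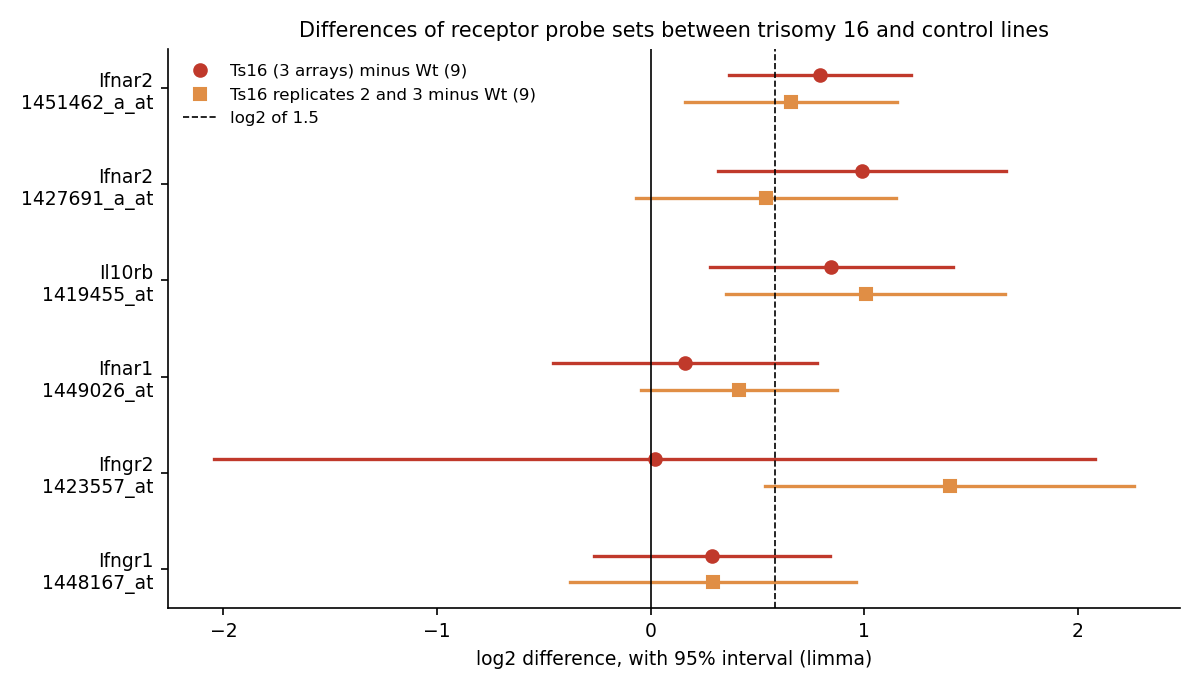
Log2 difference of Ts16 from Wt for each tested receptor probe set (horizontal axis), with 95% intervals from limma. Circles use all 3 Ts16 arrays and squares replicates 2 and 3, and the dashed line is the log2 of 1.5. Every interval includes the dashed line, and the Ifngr2 interval shrinks and moves up when the biased arrays are left out.

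None of the 6 receptor probe sets passed an adjusted p of 0.05 in Ts16 against Wt. By the same limma fit 4 of all 11721 probe sets passed, or 0.0341%, each of a chromosome 16 gene, and with replicate number as a block none did. Unadjusted p-values were under 0.05 and the difference above 0 for 3 receptor probe sets, both of Ifnar2 and that of Il10rb, while 3.13% of all probe sets and 44.1% of those of chromosome 16 met this. In the fit without the 3'-biased arrays 0 of 11688 probe sets passed (0%), and 3 receptor probe sets had an unadjusted p under 0.05: 1451462_a_at of Ifnar2, Il10rb and Ifngr2. There the background was 3.26% of all probe sets and 43.2% of those of chromosome 16. The receptor counts were 3 of 5 chromosome 16 probe sets in each fit, within 1 probe set of what those chromosome 16 shares give.

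Separation of the groups depended on the biased array. With all 3 Ts16 arrays no receptor probe set had every Ts16 value above every Wt value, which 0.938% of all probe sets and 16.8% of those of chromosome 16 had. With replicates 2 and 3 it held for 3 of the 6, Il10rb, Ifnar1 and Ifngr2, against 2.07% of all probe sets and 30.7% of those of chromosome 16. Ifnar2 was not among them, since its replicate 2 fell within the Wt range at both probe sets.

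The place of each receptor among its chromosome 16 companions differed between the fits. The 5 clustered probe sets had a median difference of 0.80 with all Ts16 arrays and 0.66 without the biased ones, against chromosome 16 medians of 0.62 and 0.61 and medians over all tested probe sets of -0.04 and -0.07. With all arrays, 355 of 399 probe sets had a larger difference than Ifngr2, and without the biased ones 47 of 398 did. For Il10rb the numbers were 137 and 92, and for Ifnar1 335 and 265. For Ifnar2 they were 143 and 187 at 1451462_a_at and 93 and 223 at 1427691_a_at. The quartiles of chromosome 16 ran between 0.30 and 0.97 with all arrays and between 0.32 and 0.96 without the biased ones, so Ifngr2 lay below the lower quartile in the first fit and above the upper one in the other.

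**Figure D4:**
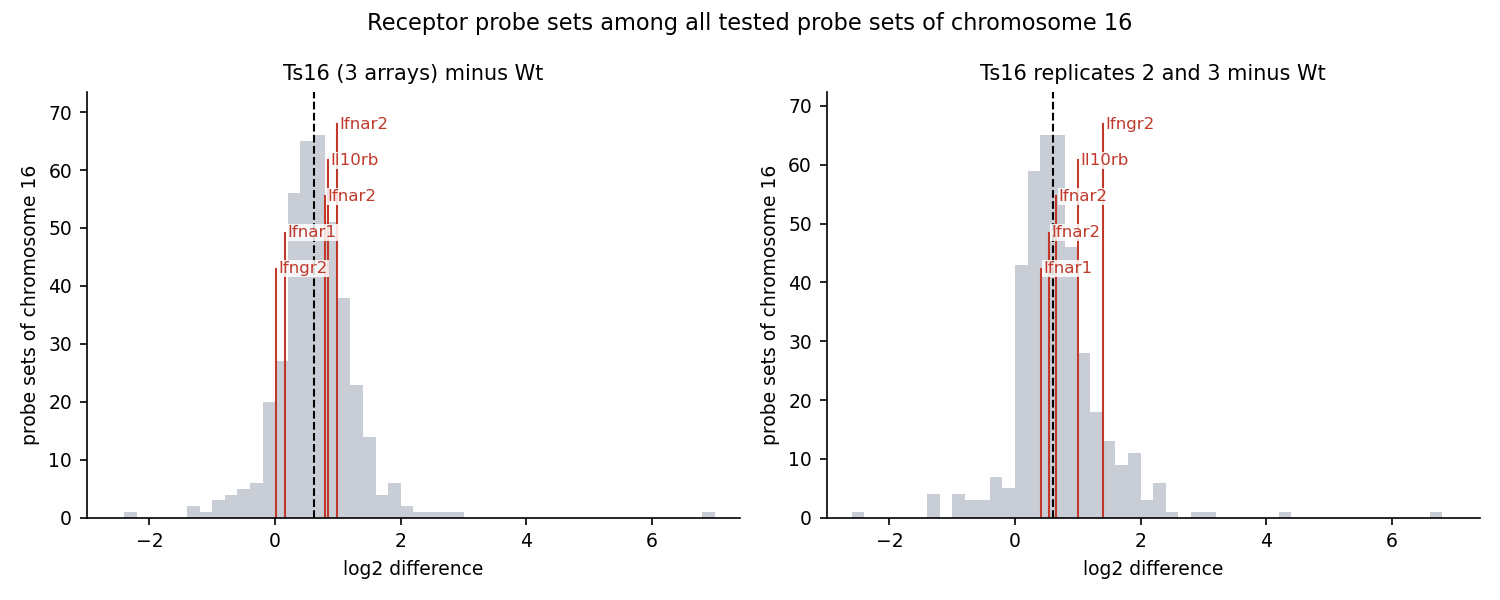
Number of tested chromosome 16 probe sets (vertical axes) by log2 difference of Ts16 from Wt (horizontal axes), with all 3 Ts16 arrays on the left and replicates 2 and 3 on the right. Red lines mark the clustered receptor probe sets and dashed lines the chromosome medians of 0.62 and 0.61. The Ifngr2 line stands at 0.02 on the left and at 1.40 on the right.

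In the RefSeq gene order the receptors follow each other as Ifnar2, Il10rb, Ifnar1 and Ifngr2, with no other tested gene between them. The 5 tested genes before the cluster (Scaf4, Hunk, Mis18a, Cfap298 and Paxbp1) and the 5 after it (Tmem50b, Gart, Son, Donson and Cryzl1) were read at their probe set with the highest mean. With all Ts16 arrays 10 of 10 had a difference above 0, as 215 of 243 tested chromosome 16 genes had, with a median of 0.58 and a range of 0.13 to 1.39. On the unbiased arrays 9 of 10 did, as 222 of 242 chromosome 16 genes did, with a median of 0.35 and a range of -0.09 to 0.83. None passed an adjusted p of 0.05 (limma), and the unadjusted p was under 0.05 for 6 with all arrays and 0 without the biased ones, beside the chromosome 16 shares of 44.1% and 43.2% given above.

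Donson, which acts in DNA replication, stood at 1.39 with all arrays and at 0.80 without the biased ones, and Mis18a, a centromere protein, at 1.29 and 0.83. Gart, an enzyme of purine synthesis, stood at 0.47 and 0.72, and Son, an RNA-splicing protein, at 0.34 and 0.11. Without the biased arrays Il10rb, at 1.01, and Ifngr2, at 1.40, had larger differences than each of these 10 neighbours. That order was not tested.

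**Figure D5:**
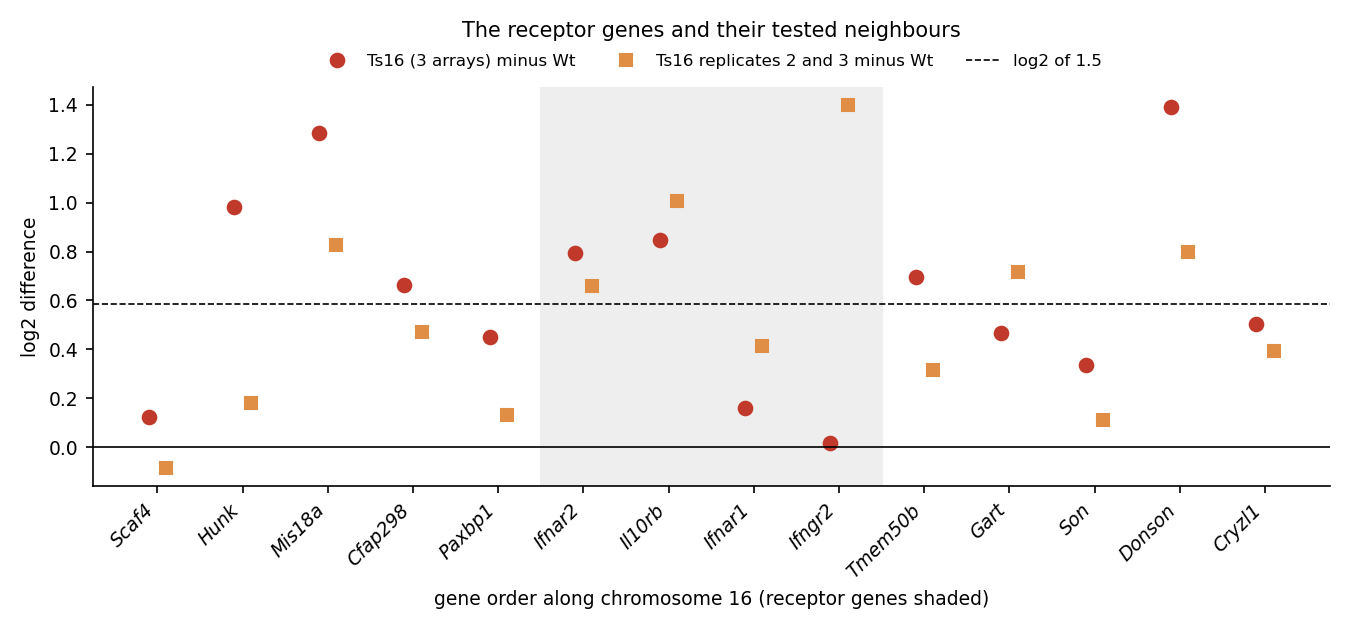
Log2 difference of Ts16 from Wt (vertical axis) for the 4 clustered receptor genes (shaded) and the 10 tested neighbours in their order along chromosome 16, each at its probe set with the highest mean. Circles use all 3 Ts16 arrays, squares replicates 2 and 3, and the dashed line is the log2 of 1.5. With squares, Ifngr2 at 1.40 and Il10rb at 1.01 are the highest points, and with circles Donson at 1.39 is.

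Ts16 was also set against the 6 lines with another extra chromosome, which have 2 copies of chromosome 16. These comparisons share the Ts16 arrays with those against Wt, so their values stand side by side and are no repeat of each other. At Ifnar2 the differences were 0.82 ± 0.21 (SE, interval 0.37 to 1.27, limma adjusted p = 0.0933) for 1451462_a_at and 1.26 ± 0.34 (interval 0.55 to 1.98, limma adjusted p = 0.0968) for 1427691_a_at. Both are above 0 by their intervals and miss the threshold after adjustment, which 0.648% of all probe sets and 7.77% of those of chromosome 16 passed. These were the 2 receptor probe sets with an unadjusted p under 0.05 and a difference above 0, which 7.12% of all probe sets and 42.1% of those of chromosome 16 had. With the Gapdh difference of each array as a covariate both passed, at 0.83 (limma adjusted p = 0.0333) and 1.27 (limma adjusted p = 0.015). That fit called 401 probe sets against 76 without the covariate. Above 1.41 the covariate had values only on the 3 biased arrays, at 5.57 to 6.94, and none of these is Wt. A straight line across that gap was assumed. The fit without the biased arrays gave 0.81 (limma adjusted p = 0.201) for 1451462_a_at and 0.90 (limma adjusted p = 0.243) for 1427691_a_at, and with the first title number as a block the adjusted p-values were 0.701 and 1. Without Ts16 replicate 1 alone the 1427691_a_at value was 0.81, smaller by more than 1.5 times.

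For the other chains the intervals included 0. The difference was 0.54 ± 0.28 for Il10rb (interval -0.06 to 1.14, limma adjusted p = 0.404), 0.25 ± 0.31 for Ifnar1 (interval -0.41 to 0.90) and 0.74 ± 1.03 for Ifngr2 (interval -1.45 to 2.93). The Ifngr2 value depended on single arrays: it was 2.12 without Ts16 replicate 1, 0.10 without replicate 2, 0.0042 without replicate 3, 0.047 without Ts13 replicate 3 and 0.45 without Ts13 replicate 4. Leaving out all 3 biased arrays gave 0.89 ± 0.44 (SE, limma adjusted p = 0.418). Ifnar1 was 0.50, 0.13 and 0.11 without Ts16 replicate 1, 2 and 3, and Il10rb was 0.65 without the biased arrays. For Ifngr1 it was near 0, with an interval of -0.59 to 0.58 that ends just short of the log2 of 1.5.

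For the 6 lines with an extra chromosome 1, 13 or 19 against Wt, every receptor interval included 0. The differences were -0.03 ± 0.16 (SE) and -0.27 ± 0.25 for Ifnar2 at 1451462_a_at and 1427691_a_at, 0.30 ± 0.21 for Il10rb, -0.09 ± 0.23 for Ifnar1, -0.72 ± 0.77 for Ifngr2 and 0.29 ± 0.21 for Ifngr1. None passed, as 0.128% of all probe sets did, and none had an unadjusted p under 0.05, as 11.7% of all probe sets had (limma). The intervals for Ifnar1 and both Ifnar2 probe sets end below the log2 of 1.5. For Ifngr2 the sign turned without the biased arrays, to 0.51. Il10rb in Ts13 was above the Wt line of the same first title number in 5 of 6 pairs, and 0.02 below it in the other pair. The largest excess was 1.48, in replicate 2 against Wt replicate 5, which at 8.42 was the lowest Wt line. Some lines recur in these pairs, and Ts13 replicates 3 and 4 are 3'-biased. The share of all probe sets with such a count is not given here.

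The partners of these receptors were read from lists. Of 8 tested kinases and STAT-pathway genes, 0 passed in either fit (limma), none had an unadjusted p under 0.05, and 3 of 8 were above 0 in each, where 3262 of 7382 and 2671 of 7352 of all tested genes were, with medians of -0.21 with all Ts16 arrays and -0.07 without the biased ones. Jak1, the kinase held by Ifnar2 and Ifngr1, differed from Wt by 0.31 and -0.01 in the 2 fits. Tyk2, held by Ifnar1 and Il10rb, differed by -0.38 and 0.30, and Jak2, held by Ifngr2, by -0.07 and -0.49. Stat3, which carries the interleukin-10 signal, differed by -1.28 with the biased array and by 0.22 without it.

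The ligands were not measurable: 10 of 12 listed ligand genes were on the array and none reached the level filter, with Ifnb1, interferon beta, at a mean of 2.19 in Ts16 and between 2.12 and 2.21 in Wt. Il10ra, the ligand-binding chain that pairs with Il10rb, was also below the filter, at a mean of 2.42 in Ts16 and 2.35 to 2.45 in Wt. F3, tissue factor, a receptor of the same structural class, was the single other class member tested and differed by 0.41 and 0.37.

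Of 25 listed interferon target genes 10 were tested and none passed, 4 were above 0 in each fit, beside those shares of all genes, and the medians were -0.09 with all Ts16 arrays and -0.22 without the biased ones, with an unadjusted p under 0.05 for 1 higher gene, Irf1, in the first fit (limma), which 3.13% of all probe sets had. Irf1, a transcription factor induced by interferon gamma, differed by 0.99 and 0.73 (limma adjusted p = 0.787 and 0.695), and Ifit2 by 0.31 and 0.01. Irf7 and Ifit1 were below the level filter. Of 11 listed inhibitors 6 were tested and 0 passed, with none under an unadjusted p of 0.05 (limma): Socs3, a feedback inhibitor of STAT signalling, differed by -0.48 and -0.63 and Socs2 by 0.71 and 0.39.

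The genes whose levels ran most like those of each receptor were taken by Pearson correlation over the 15 unbiased arrays among 7382 genes, as a description of lines that share groups and first title numbers. For Ifnar2 (1451462_a_at) they were Mdfic (r = 0.846), Pigp (0.840), a chromosome 16 gene, and Selenop (0.803). For Il10rb they were Serpinb9b (0.879), Pitpna (0.856) and Crip2 (0.851). For Ifnar1 they were Sec22a (0.812), also on chromosome 16, Mfap5 (0.799) and Dnase1l1 (0.754).

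For Ifngr2 the nearest genes were Klhl24 (r = 0.822) and Ppil2 (0.785), both on chromosome 16, and Ang (0.780). For Ifngr1 they were Emp3 (0.936), Nsfl1c (0.917) and Crim1 (0.897). The likeness often did not extend to the biased arrays. Over all 18 arrays r was -0.101 for Ifnar1 and Sec22a and -0.259 for Ifngr1 and Emp3, while it was 0.942 for Ifngr2 and Ppil2.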

How the data were processed

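Expression was measured on 18 Affymetrix arrays, 1 per line, with 22690 probe sets, from 5 ug of total RNA per the labels. The deposited values are log2 expression values that the authors made with GCRMA and the affy package, per the submitters' processing notes. The sources used here state no versions or settings, nor whether the arrays were summarised together. Arrays give no counting depth, and their number limits the precision.

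Probe sets listed with exactly 1 gene (20393, while 691 had several and 1606 no entry) that averaged 4 or more on the log2 scale across the arrays of a fit went into limma (version 3.58.1, R 4.3.3; lmFit, eBayes with a trend, two-sided). P-values were adjusted by Benjamini-Hochberg over all tested probe sets, with a threshold of 0.05 and 95% intervals. All 18 arrays in 5 groups entered the fit (13 residual degrees of freedom), or the 15 unbiased arrays (10), and lone Ts1 and Ts19 arrays were assumed to vary like the other groups. Genes were placed on chromosomes by RefSeq, GRCm38.p6. The Gapdh limit of 3 and the members and gene lists were chosen with earlier results of these data known.

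All probe sets of the 5 receptors are described. From each list at most 4 genes in written order are named, and likeness names the 3 genes with the highest correlation; the neighbours named with values, the leukocyte markers, Stat3 and F3 were chosen after their values were seen. By replicate number, the deviations of Ts16 and Wt replicates 1 to 3 correlated at 0.699, 0.541 and 0.818 over 11721 probe sets (other pairs -0.691 to -0.015), so the numbers were taken to pair the samples. Deviations were taken from the mean of replicates 1 to 3 of each group, so the lower values of the other pairs are no separate evidence. Ts16 replicate 1 is 3'-biased, and the part of RNA quality in these correlations was not tested. The main fits leave this pairing out, and a block by replicate number over these replicates alone was an alternative. At Ifnar2 it gave 0.95 for 1451462_a_at (limma adjusted p = 0.433) and 0.95 for 1427691_a_at (limma adjusted p = 0.492). For Ifnar1 it gave 0.18 (limma adjusted p = 0.789). The sources used here do not explain the first title number. Alternatives covered filters, probe set choice, scaling, the variance trend, blocks, RNA quality and leaving out each array. The fits were run on simulated data with independent noise, without 3' bias or pairing. That run does not cover these features, and its recovery rate is not given here. Figures were drawn with matplotlib 3.10.9.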

Additional observations from a re-analysis of the deposited data

Results flagged for a closer look

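At the Ifnar2 probe set 1427691_a_at, every Ts16 line lay above the Wt mean of 7.05 and every Ts13 line lay below it, and the mean shifts of Ts16 and Ts13 differed by 1.41 on the log2 scale. That difference itself was not tested; Ts16 against the 6 lines of Ts13, Ts1 and Ts19 together gave a limma adjusted p of 0.0968. Ts16 replicate 1 and Ts13 replicates 3 and 4 are 3'-biased, and their part in it was not tested. The share of all probe sets that split in this way is not given here. Of the tested chromosome 16 probe sets, 89.5% had a Ts16 difference from Wt above 0. At the other Ifnar2 probe set, 1451462_a_at, Ts13 ran between 9.51 and 9.94, on both sides of the Wt mean of 9.69.

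At Ifngr1, Wt replicate 9 stood apart at 7.52 as the lowest of 9 Wt lines, with a gap to the next line of 0.631 of the whole range. Its Gapdh difference of 1.41 was the highest in Wt, and the Ts1 line of the same first title number was also low, at 7.80. Of 12 sets of replicates looked at in this way, chance marks about 1 in 20.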

How the results depend on the processing

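Of 614 values of the receptor probe sets under other settings, 585 kept their direction and side of the threshold, 27 changed sign, 2 passed and 0 dropped out. Each change of sign concerned a value smaller than its error, except Il10rb against the other trisomies; causes were not tested. No receptor probe set was called under any setting in the comparisons with Wt; in Ts16 minus other trisomies 2 were called with the Gapdh covariate, both of Ifnar2, at 1.27 and 0.83.

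The replicate block, by replicate number and by first title number, gave -0.11 for Ifngr2 in Ts16 minus Wt. The first title number as a block gave -0.0078 for Il10rb in Ts16 minus other trisomies. Leaving out each array, Ifngr2 in Ts16 minus Wt ran between -0.72 (without Ts16 replicate 3) and 1.40 (without Ts16 replicate 1), and was below 0 also without Ts16 replicate 2 or Wt replicate 1, 7, 8 or 9. Ifngr1 in Ts16 minus other trisomies was 0.0095 with median-centred arrays, 0.23 without the biased arrays and between -0.21 and 0.10 leaving out each array.

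For the other trisomies minus Wt, median centring gave 0.10 for Ifnar1 and 0.16 for Ifnar2 1451462_a_at, and put the median of all probe sets at 0.16, against -0.03 as deposited; in Ts16 minus Wt these medians were 0.16 and -0.04, and the Ifnar2 and Il10rb differences stayed above them. Quantile normalization gave 0.019 for that Ifnar2 probe set. Without the biased arrays Ifngr2 was 0.51 and Ifnar1 0.15. Leaving out each array gave -0.27 to 0.079 for Ifnar1 and -0.0845 to 0.0317 for Ifnar2 1451462_a_at.

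Counts over all probe sets, 4 in Ts16 minus Wt, became 10 with no filter, 0 with median centring or either block, 1 without the trend, 2 with Ts16 and Wt alone, and 0 to 7 leaving out each array (0 without Ts16 replicate 1, 7 without replicate 3). The 0 without the biased arrays became 18 with no filter, 1 with the block and at most 1 leaving out an array. The 76 against other trisomies became 0 with median centring, with the block and without the biased arrays, 401 with the covariate, and 0 (without Ts16 replicate 2 or Ts13 replicate 1) to 134 (without Ts19). The 15 of other trisomies minus Wt became 63 with no filter, 2 with the block, 3 without the biased arrays, and 4 to 66 leaving out each array.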
